A study of Mus musculus with 4 samples.

Results

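The cells described here are Col1a2-positive lung cells chosen by 5 transcripts, Cxcl14, Nt5dc2, Fmod, Adra1b and Bmp3, and they are called the rule cells. Most had fibroblast markers, and some had signs of other cells, given below. A cell had to have at least 500 detected genes, at most 10% of its unique molecular identifier counts (UMIs, one per captured transcript) from mitochondrial genes, no UMI of Epcam, Ptprc, Pecam1 or Msln, and at least 3 UMIs of Col1a2, a fibrillar collagen chain. Of 11118 deposited barcodes, 9391 passed the first 2 filters and 5776 passed all of them. Among these 5776 cells, 1706 (29.5%, exact binomial 95% interval 28.4 to 30.7) had at least 1 UMI of 3 or more of the 5 genes and are the rule cells. The remaining 4070 are called the other cells. All cells came from lungs of mice of about 8 weeks with the genotype Gli1CreERT2/WT; Rosa26 mTmG/WT, dosed with tamoxifen. The CreERT2 enzyme is made where Gli1 is active and works only with tamoxifen, and the mTmG reporter makes tdTomato before and EGFP after Cre has acted. EGFP therefore marks cells in which Gli1 was active at dosing, and their progeny, and not a cell type. The sort kept cells negative for CD45, a leukocyte protein, and CD31, an endothelial protein. All samples used here carry this 1 set of labels, so no comparison between treatments was made. The labels conflict on the strain, and none is given here.

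Lung fibroblasts fall into broad kinds with different positions. Alveolar fibroblasts lie in the gas-exchange walls next to epithelial cells and store retinoid and lipid, and Npnt, Slc7a10, Inmt and Limch1 are among their usual markers. Adventitial fibroblasts lie in the cuffs around vessels and airways, make a matrix rich in decorin, and carry Pi16, Ly6a and Dpp4. Another kind near airways and alveolar ducts expresses Hhip, Aspn and Fgf18 and grades into smooth muscle. Hedgehog ligand from epithelium acts on all of them through the receptor Ptch1, and Gli1 is both an effector and a target of that pathway. Among the genes of the rule, Cxcl14 encodes a secreted chemokine, Fmod the collagen-binding proteoglycan fibromodulin, Adra1b an alpha-1 adrenergic receptor and Bmp3 a secreted member of the BMP family. Nt5dc2 encodes a protein of the 5′-nucleotidase domain family.

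The 4 samples carry the same labels and were deposited as 1 matrix with 1 barcode suffix, so all cells were treated as 1 sample. There is no replicate and no test, and every interval below covers counting error only. The samples had 65156149 to 74901791 reads passing filter. Rule cells had a median of 7553 UMIs (range 1100 to 37645) and 2703 genes, and other cells a median of 7721 UMIs (range 815 to 28407) and 2608 genes. Scrublet, which marks likely doublets (droplets with 2 cells), called 3.93% of rule cells and 2.33% of other cells. A cell with more UMIs has more chances to show 3 of 5 genes, so depth takes part in the choice. The median was 6502 UMIs in cells with exactly 2 of the genes, 6900 with 3, 8521 with 4 and 9875 with all 5, and 8193 in cells with none.

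The 5 genes were detected at unequal rates in the rule cells. These values chose the cells and are given as a description. Cxcl14 had a UMI in 96.1% of rule cells and 36.0% of other cells, and its summed level was 1621 and 426 CPM (the UMIs of a gene as a share of all UMIs of the set of cells, on the usual CPM scale). Bmp3 had a UMI in 90.1% and 20.2%, at 273 and 44.4 CPM. Nt5dc2 had a UMI in 86.6% and 19.5%, at 236 and 37.5 CPM. Each of the 2 genes with the lowest levels had no UMI in most rule cells. Adra1b had a UMI in 37.0% of rule cells and 4.86% of other cells, at 63.1 and 7.69 CPM. Fmod had a UMI in 34.1% and 5.50%, at 98.0 and 12.7 CPM. The commonest combination was Cxcl14, Nt5dc2 and Bmp3 without the other two, in 712 rule cells (41.7%), while all 5 were found in 127 (7.44%). Of the 1706 rule cells, 582 had an Fmod UMI and 631 an Adra1b UMI. Thinned to 5000 UMIs a cell, Fmod had a UMI in 25.8% of rule cells and 4.24% of other cells, and Cxcl14 in 89.7% and 26.7%.

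At the threshold, 1084 cells had exactly 3 of the genes and 1153 had exactly 2. Fmod was at 45.5 CPM in the first set and 25.1 in the second, and it reached 134 CPM with 4 genes and 299 with all 5. The classes count Fmod itself: it had a UMI in 10.3% of cells with 2 genes and by definition in all cells with 5. The rise of Fmod therefore follows from how the classes were made. Cxcl14 already had a UMI in 84.0% of cells with 2 genes. It was at 1210 CPM with 2 genes, 1663 with 3, 1612 with 4 and 1397 with 5. With none of the genes there were 1717 cells, and with 1 there were 1200. As a gauge of background from free RNA, 1505 epithelial cells were read (an Epcam UMI and no Col1a2 or Ptprc UMI, median 9934 UMIs). Only 2 (0.133%) of them had 3 or more of the genes. Of these epithelial cells 26.8% had a Bmp3 UMI, 8.31% a Cxcl14 UMI, 4.39% an Nt5dc2 UMI, 0.465% an Fmod UMI and 0.332% an Adra1b UMI. The Bmp3 shares in other cells of the adventitial and Hhip gates defined below (8.47% and 19.6%) were not above the epithelial share and are not read as expression.

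**Figure D1:**
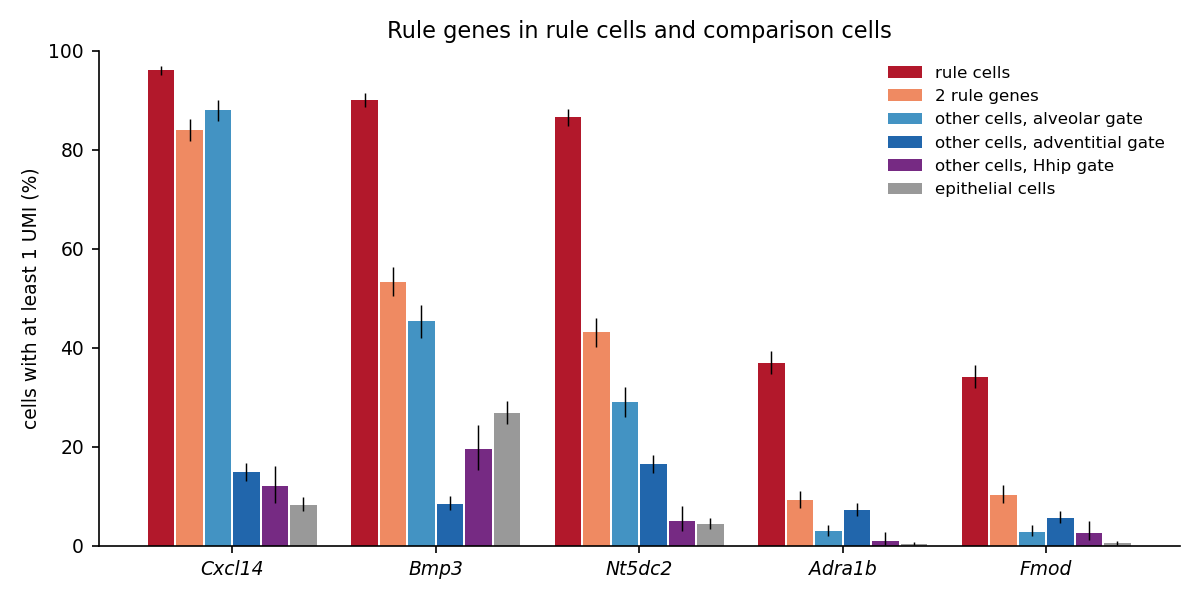
Share of cells with at least 1 UMI (vertical axis, percent) of each rule gene, for rule cells, cells with exactly 2 rule genes, 3 sets of other cells picked by marker gates, and epithelial cells with an Epcam UMI and no Col1a2 UMI. Bars show the share and lines the exact binomial 95% interval. Alveolar-gate cells come close to the rule cells for Cxcl14 (88.1% and 96.1%) and lie far below them for Fmod (2.84% and 34.1%). They were drawn from the other cells, which have fewer than 3 rule genes. A cell with Cxcl14, Fmod and 1 more rule gene counts as a rule cell, so the Fmod gap follows in part from the choice.

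The number of rule genes went with graded levels of genes that the rule did not use. Limch1, a marker of alveolar fibroblasts, was at 80.0 CPM in cells with none of the 5, 275 with 1, 868 with 2, 1214 with 3, 1269 with 4 and 1383 with 5. Dcn was at 12525, 10041, 5462, 3437, 3557 and 4009 CPM over the same classes, and Lum, encoding lumican, at 924, 697, 255, 81.0, 92.7 and 113. For Limch1 and Dcn the step from 2 to 3 rule genes, where the rule divides the cells, was smaller than the step from 1 to 2, and for Lum it was smaller in CPM but not as a fold. Npnt behaved differently: it was highest with 3 genes, at 1144 CPM, and was at 853 with 4 and 639 with 5. Slc7a10 was at 70.5, 43.7 and 13.1 CPM over the same 3 classes.

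In the genome (mm10, GENCODE M21) the 5 genes lie on 5 chromosomes. Fmod is at chr1:134037254-134048277 on the plus strand, Bmp3 at chr5:98854415-98884396 on the plus strand and Nt5dc2 at chr14:31131053-31139124 on the plus strand. Adra1b is at chr11:43774606-43901210 and Cxcl14 at chr13:56288643-56296551, both on the minus strand.

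The working name of these cells was a mixed identity, and marker gates showed that this held for a minority of them. A gate was passed with a UMI of at least 3 of 5 genes: Pi16, Ly6a, Ly6c1, Ackr3 and Dpp4 for the adventitial gate, Npnt, Slc7a10, Fgfr4, Itga8 and Tcf21 for the alveolar gate, and Hhip, Fgf18, Aspn, Mustn1 and Enpp2 for the Hhip gate. Of the 1706 rule cells, 1146 (67.2%, interval 64.9 to 69.4) passed the alveolar gate alone, against 22.5% of other cells. The adventitial gate alone was passed by 147 rule cells (8.62%) and 37.4% of other cells. Both gates together were passed by 158 rule cells (9.26%, interval 7.93 to 10.7) and 80 other cells (1.97%, interval 1.56 to 2.44). No gate was passed by 194 rule cells (11.4%). The Hhip gate alone was passed by 6, and with 1 other gate by 55. The rule cells were therefore mostly cells with alveolar markers, and the name "mixed" is not used for them as a whole.

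The cells past both gates were deep and rich in doublet calls. Rule cells past both had a median of 12428.5 UMIs, against 6863 for those past the alveolar gate alone, and Scrublet called 19.6% of them against 1.92%. Among other cells past both gates it called 40.0%. With each cell thinned to 5000 UMIs (279 rule cells and 837 other cells were shallower and were left out), both gates were passed by 4.27% of rule cells and 0.897% of other cells. Without the called doublets the share of rule cells was 7.75%. At full depth the share was 6.18% of cells with 3 rule genes, 12.7% with 4 and 22.0% with 5, while doublet calls within those cells were 28.4%, 15.9% and 7.14%. Thinned to 5000 UMIs it was 3.50%, 5.18% and 6.40%, with overlapping intervals.

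**Figure D2:**
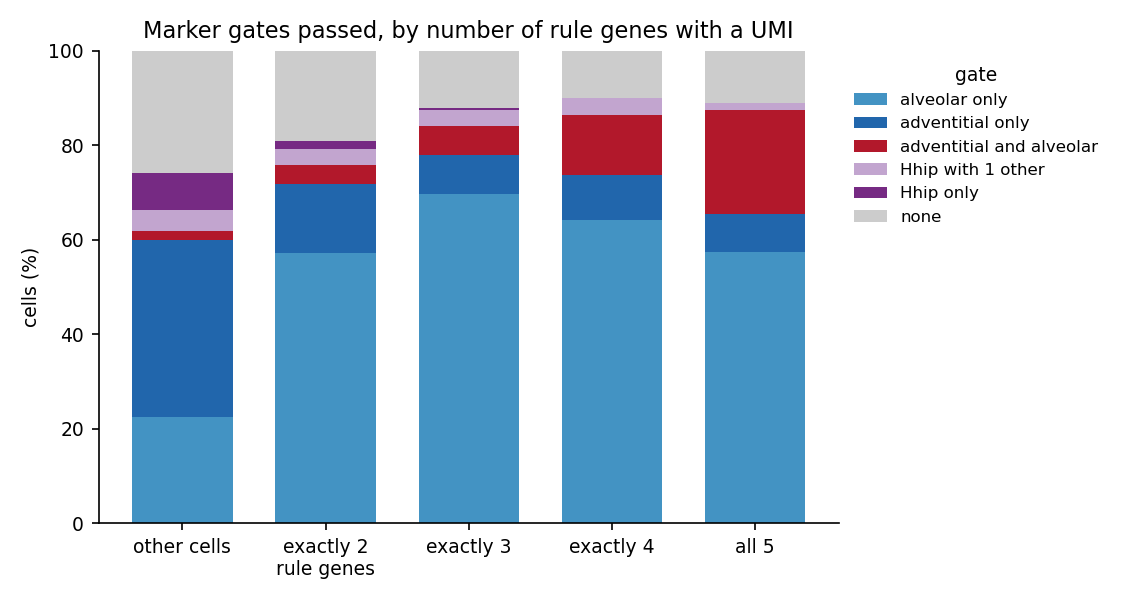
Share of cells (vertical axis, percent) by the marker gates they passed at full depth, for other cells and for cells with exactly 2, 3, 4 or all 5 rule genes; cells with 2 are part of the other cells. The alveolar gate alone holds the largest share in each column but the first, and the share past both the adventitial and alveolar gates is 6.18% with 3 genes and 22.0% with all 5.

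The gate classes within the rule cells differed in the rule genes themselves, which is a description of the choice. A cell low in Cxcl14, Bmp3 and Nt5dc2 can pass the rule only with Fmod or Adra1b, so the choice itself favours opposite orders. Cxcl14 was at 2063 CPM in rule cells past the alveolar gate alone, 811 in those past both gates and 495 in those past the adventitial gate alone. Fmod had the reverse order, at 75.6, 131 and 170 CPM, and a UMI in 28.4%, 48.7% and 61.2% of the cells. In other cells Fmod was nearly level, at 7.95 CPM in the alveolar gate and 10.2 in the adventitial gate, with overlapping intervals. The rule also limits the other cells, and cells with Cxcl14 and Bmp3 stay among them only without Fmod. The levels in other cells therefore do not settle the order of Fmod between the gates. Bmp3 was at 319, 206 and 159 CPM and Nt5dc2 at 274, 163 and 138. Adra1b differed least, at 60.1, 68.5 and 79.3 CPM with overlapping intervals between neighbours. The 194 rule cells past no gate had 1502 CPM of Cxcl14 and 111 of Fmod. Their Dcn, at 4208 CPM, lay between the 1252 of the alveolar class and the 10002 of the adventitial class.

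The lineage reporter was read in the same classes. Egfp was at 1260 CPM in rule cells and 1452 in other cells (0.87), and TdTomato had a ratio of 1.44 (1.22 to 1.69), at 17.2 CPM in rule cells. Rule cells past the alveolar gate alone had Egfp at 1295 CPM, with a UMI in 59.3% of cells, and TdTomato at 23.8. Those past the adventitial gate alone had Egfp at 974 CPM, with a UMI in 63.9%, and TdTomato at 1.28. The order of the Egfp shares went against that of the levels, and the adventitial class was deeper (10186 against 6863 UMIs), so no order is read from the shares.

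Clusters made without the rule genes showed the rule cells in several groups. The 5776 cells formed 19 clusters, numbered by the clustering, and each held at least 2 rule cells. The cluster with most rule cells, cluster 5, held 365 of them (21.4%, interval 19.5 to 23.4), followed by cluster 7 with 331, cluster 6 with 330, cluster 9 with 223 and cluster 11 with 188. Together these 5 held 84.2% of the rule cells. Rule cells were 74.5% of cluster 6, 65.9% of cluster 7, 54.8% of cluster 5, 40.8% of cluster 9 and 36.9% of cluster 11. Cluster 3 held 68, which was 14.8% of its cells. The largest cluster of the fit, cluster 1 with 700 cells, held 15.

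**Figure D3:**
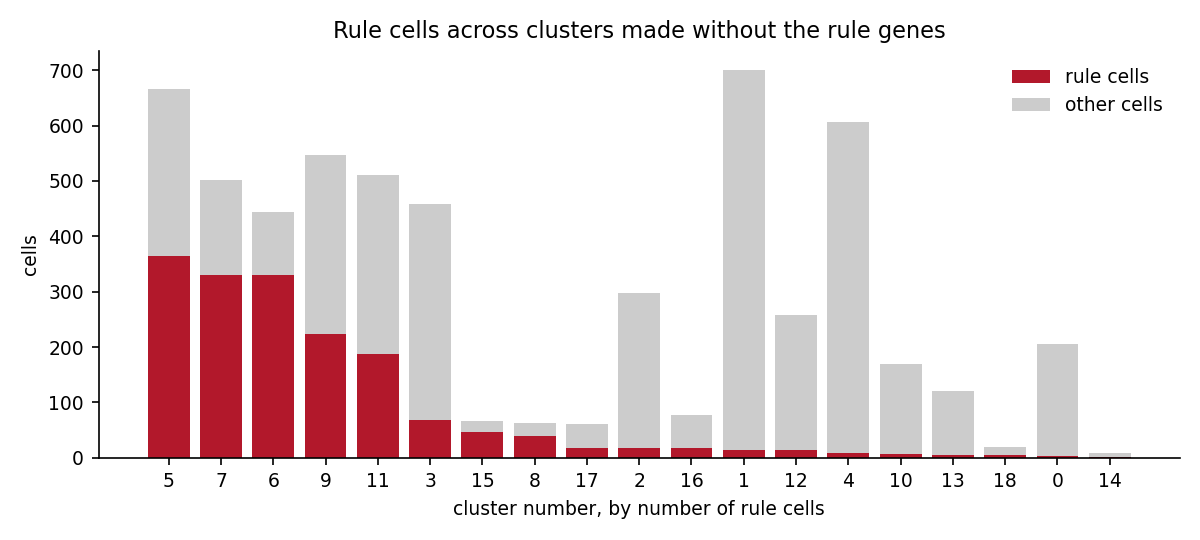
Number of cells (vertical axis) in each cluster, split into rule cells and other cells, with clusters ordered by their number of rule cells. Clusters 5, 7, 6, 9 and 11 hold 84.2% of the rule cells, and none of them is made of rule cells alone.

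Within the rule cells, these clusters differed in level from one fibroblast programme to the other. Npnt, encoding the basement membrane protein nephronectin, was at 2830 CPM in the rule cells of cluster 9, 1783 in cluster 5, 1066 in cluster 6, 514 in cluster 11, 230 in cluster 7 and 68.6 in cluster 3. Dcn, encoding the matrix proteoglycan decorin, had the reverse order, with 132, 368, 638, 2834, 6104 and 10662 CPM. Pi16, a marker of adventitial fibroblasts, had the same order as Dcn, from 7.01 CPM in cluster 9 to 61.4 in cluster 6, 672 in cluster 7 and 1730 in cluster 3. Slc7a10, encoding an amino acid transporter, was at 323 CPM in cluster 9 and 0.932 in cluster 7. Inmt, encoding indolethylamine N-methyltransferase, was high throughout, between 2502 CPM in cluster 3 and 5886 in cluster 9. The rule genes helped choose these cells, so they are given over all cells of the same clusters, rule cells and others together. Fmod had 16.8 CPM in cluster 9, 28.9 in cluster 5, 53.7 in cluster 6, 42.3 in cluster 11, 151 in cluster 7 and 33.2 in cluster 3. Cxcl14 was at 1416, 2210, 2679, 1860, 677 and 285 CPM over the same clusters. Fmod thus stood out in cluster 7, and Cxcl14 was highest in cluster 6 and lowest in cluster 3. In the rule cells alone Fmod was at 141 CPM in cluster 3, where few cells passed the rule. Adra1b in the rule cells was highest in clusters 7 and 6, at 101 and 93.4 CPM, with overlapping intervals.

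**Figure D4:**
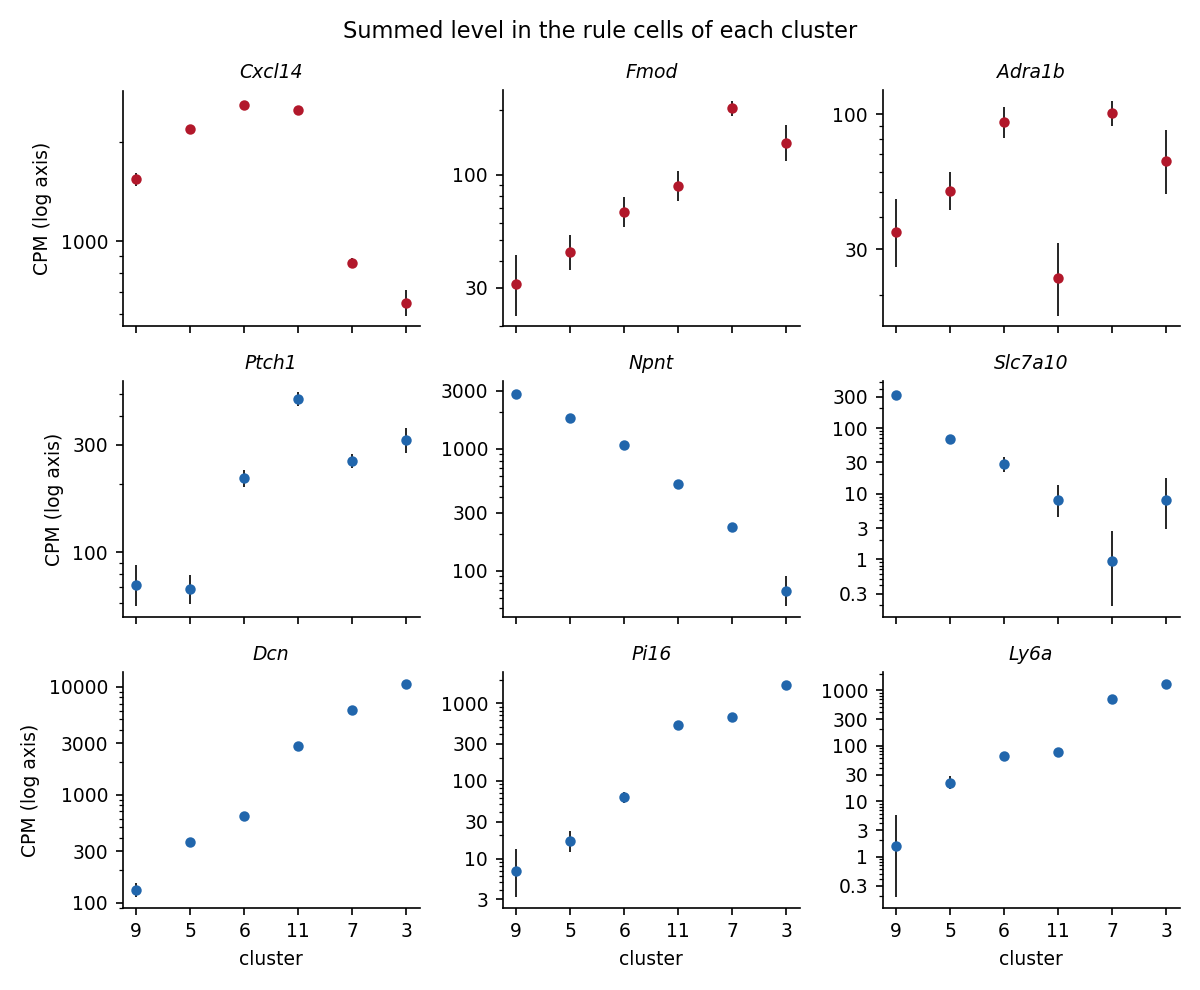
Summed level (vertical axes, CPM on log axes) of 3 rule genes (red) and 6 other genes (blue) in the rule cells of clusters 9, 5, 6, 11, 7 and 3, with exact Poisson 95% intervals. From left to right Npnt goes from 2830 to 68.6 CPM and Dcn from 132 to 10662, while Fmod has its highest point in cluster 7 at 203.

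Cluster 7 held more of the rule cells past both gates than any other cluster. Its 331 rule cells had Dcn at 6104 CPM, Ly6a at 704, Inmt at 4341, Limch1 at 1047 and Npnt at 230. Both gates were passed by 83 of them (25.1%), of 158 such rule cells in all, at a median depth of 9394 UMIs over all 331, and Scrublet called 0.906%. The leading genes of the whole cluster against all other clusters included Bpifa2, a secreted antimicrobial family protein (15-fold, 113 CPM), Cnr1, a cannabinoid receptor (4.11-fold), and Lbp, the lipopolysaccharide-binding protein (3.20-fold). Leading genes of a cluster describe it, since the cluster was made from them.

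Cluster 11 had higher levels of some signalling genes than clusters 3, 5, 6, 7 and 9. Cluster 10, with 7 rule cells, shared part of this. Over all its cells it had Notum at 294 CPM and Hhip at 589, against 100 and 230 in cluster 11. The rule cells of cluster 11 had Ptch1 at 479 CPM, the highest of the 8 clusters with most rule cells. In clusters 3, 5, 6, 7 and 9 Ptch1 was at 68.6 to 314 CPM. Notum, a secreted inhibitor of Wnt ligands, was at 56.3 CPM there and at 0.310 to 26.5 in those 5 clusters. Bmp7 was at 71.4 CPM and at 0.310 to 20.3, and Aspn, encoding asporin, at 198 CPM and at 5.45 to 75.2. The EGFP reporter transcript was at 1926 CPM, against 711 in cluster 9 and 1725 in cluster 6. Adh7, Aqp1 and Lamc3 were among the leading genes of the whole cluster, at 9.15-fold, 7.83-fold and 11.8-fold. Cluster 9, with the highest Npnt, was led by Slc7a10 (19.9-fold), Bmper (18.9-fold) and Colq (16.5-fold), and cluster 6 by Tmem163 (12.8-fold), with Hgf (3.90-fold) and Slc36a2 (3.79-fold) among its 10 leading genes.

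The smaller clusters held cells with signs of other cells. In cluster 15, 47 of 66 cells were rule cells, 31 of the 47 (66.0%) passed both gates, the median depth was 14359.5 UMIs, and Scrublet called 78.8%. In cluster 17 it called 75.4% of 61 cells, 18 of which were rule cells. Cluster 8, with 40 rule cells of 63, was led by Rtkn2, Clic5 and Ager, markers of type 1 alveolar epithelium, with Ager at 4142 CPM, although no cell had an Epcam UMI. Scrublet called 3.17% of that cluster.

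Against the other cells, alveolar fibroblast genes were higher and genes of the other fibroblast kinds lower in the rule cells. Over 13140 genes with at least 30 UMIs in both sets together, 492 (3.74%) had at least 2-fold higher CPM in the rule cells and 764 (5.81%) had at most 0.5-fold. The median over all 13140 genes was 1.05. The fold is a size, not a test. Of 12 alveolar fibroblast genes, 9 were at least 2-fold and none at most 0.5-fold (median 2.29). Limch1, encoding an actin-associated protein, was at 1248 and 342 CPM, a ratio of 3.65 (3.56 to 3.73). Npnt was at 1003 and 328 CPM (3.06), Fgfr4 at 50.3 and 18.2 (2.77) and Itga8, the integrin chain that binds nephronectin, at 399 and 149 (2.67). Inmt was at 4374 and 1940 CPM (2.25). The transcription factor Tcf21 (1.64) and the microfibril protein Mfap4 (1.49) were under 2-fold.

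Of 12 adventitial fibroblast genes, 8 were at most 0.5-fold and none at least 2-fold (median 0.38). Dcn was at 3530 CPM in rule cells and 9947 in other cells (0.35), Pi16 at 463 and 1361 (0.34), Ly6a at 363 and 878 (0.41) and Ly6c1 at 46.1 and 208 (0.22). Clec3b (0.63) and Mfap5 (0.74) were nearer to parity. All 8 genes of the peribronchial fibroblast list (median 0.26) and all 8 of the smooth muscle list (median 0.18) were at most 0.5-fold, among them Aspn (0.31), P2ry14 (0.12), Acta2 (0.28) and Myh11 (0.13). All 8 measured cartilage or tendon genes were also at most 0.5-fold, with a median of 0.07, or 0.14 with genes that had no UMI in rule cells set to their bound of 3 UMIs.

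These ratios depend on which of the 5 genes the rule holds and on what the other cells include. With Cxcl14 left out of the rule (at least 3 of the other four, 674 cells), the alveolar list had a median ratio of 1.37 and Npnt 1.51, while the adventitial list stayed below 1 at 0.49. Among genes given here as at least 2-fold, Limch1 (2.39), Slc36a2 (2.66), Nrp2 (2.37), Fgfr3 (2.42), Alcam (2.38), Gyg (2.08) and Hgf (2.08) were still so in that setting. Itga8 (1.62), Fgfr4 (1.4), Inmt (1.85), Prelp (1.83), Col13a1 (1.65), Slit2 (1.82), Robo2 (1.46), Tbx2 (1.63), Hoxa5 (1.69), Aldh1a1 (1.63), C7 (1.66), Hspb1 (1.34) and Macf1 (1.93) were not, and Fgf10 and G0s2 lay at the threshold. Against only those 1717 other cells that had none of the 5 genes, the alveolar median was 7.26 and the Npnt ratio 20.6. The values above thus average over other cells that include 914 with alveolar markers.

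**Figure D5:**
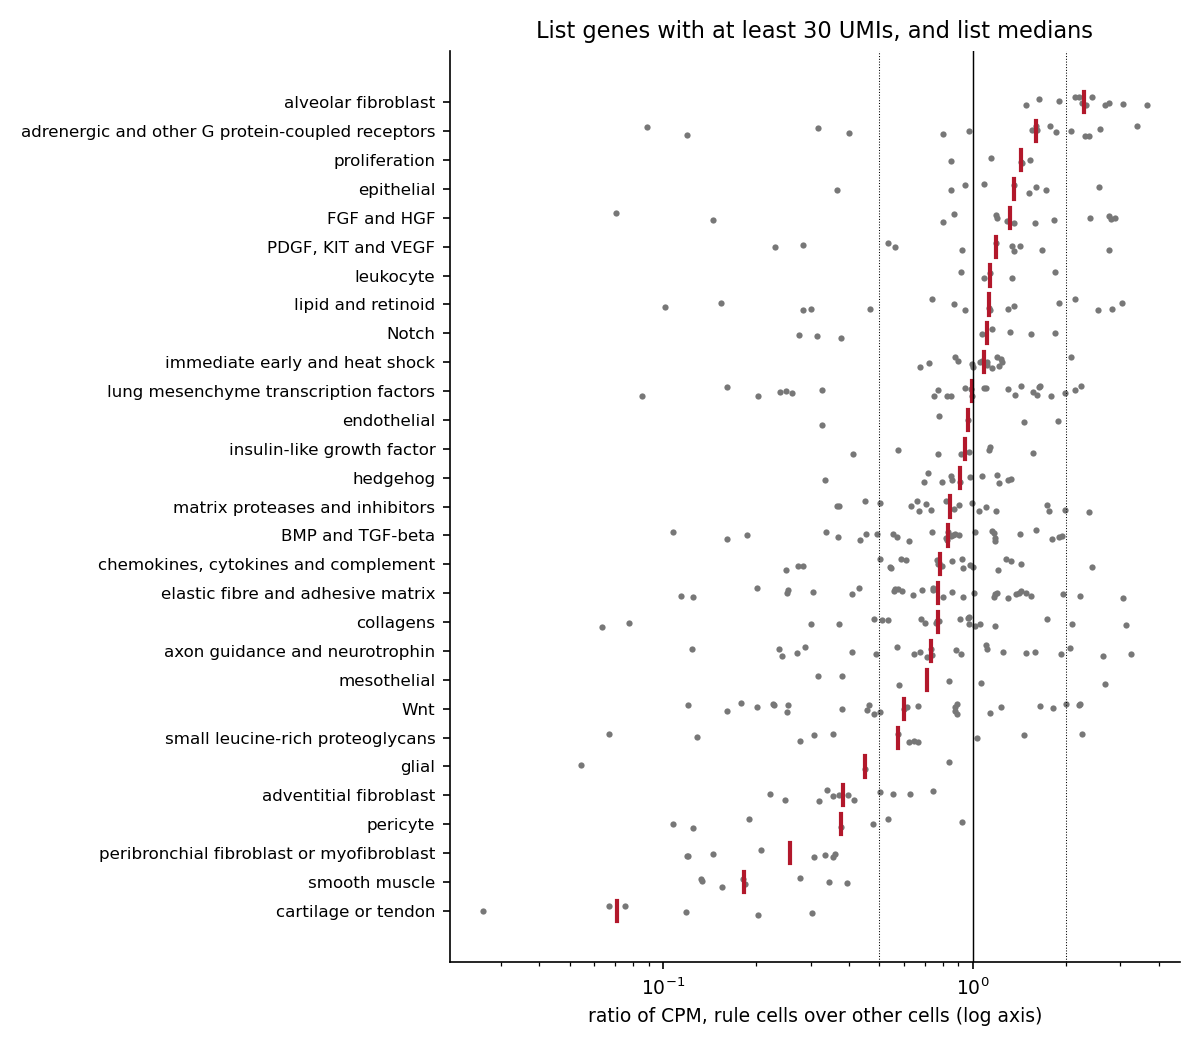
Ratio of CPM in rule cells over other cells (horizontal log axis) for each gene with at least 30 UMIs in 29 gene lists, 1 point a gene, with the list median as a red line and dotted lines at 0.5 and 2. Genes with no UMI in the rule cells are not drawn. The alveolar fibroblast list has its median at 2.29, and the adventitial, pericyte, peribronchial, smooth muscle, glial and cartilage or tendon lists have medians under 0.5.

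In the hedgehog pathway, 1 of 13 genes was past a fold threshold. Over all genes, 3.74% were at least 2-fold and 5.81% at most 0.5-fold, so this count is not read as a result about the pathway. Hhip, encoding a secreted ligand-binding inhibitor, was at 97.3 CPM in rule cells and 292 in other cells (0.33). Ptch1, the receptor and a target gene, was at 207 and 156 CPM (1.33, 1.27 to 1.39). Gli1 was at 17.1 and 23.9 CPM (0.72, 0.62 to 0.83), so the 2 usual target genes Ptch1 and Gli1 differed in direction. Gli2 was at 1.22, Gli3 at 0.80, the transducer Smo at 0.98 and the inhibitor Sufu at 0.86. Among co-receptors, Boc was at 1.30, Gas1 at 407 and 339 CPM and Cdon at 0.70. The targets Foxf1 and Foxl1 were at 0.85 and 1.07. Within the rule cells Ptch1 ranged from 180 CPM in cells past the alveolar gate alone to 229 in those past the adventitial gate alone and 293 in those past none.

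Growth factor genes of alveolar fibroblasts were among the higher ones. Of 14 FGF and HGF genes, 4 were at least 2-fold and 2 at most 0.5-fold (median 1.33). Over all genes the shares were 3.74% and 5.81%. Hgf, encoding hepatocyte growth factor, which acts on epithelium, was at 86.0 and 29.8 CPM (2.88), the receptor Fgfr3 at 161 and 57.7 (2.79) and Fgf10, a ligand for epithelial receptors, at 78.3 and 32.7 (2.40). Fgf18 was at 2.36 and 16.2 CPM (0.15).

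Of 27 measured Wnt genes, 3 were at least 2-fold and 12 at most 0.5-fold (median 0.60), against 3.74% and 5.81% of all genes. The ligands Wnt2 (2.21, 77.6 and 35.1 CPM) and Wnt4 (2.23, 62.6 and 28.1 CPM) were higher, and Axin2, a target gene, was at 1.81. These too depended on the rule: with Cxcl14 left out Wnt2 was at 1.13, Wnt4 at 1.73 and Axin2 at 1.18. The secreted inhibitors Sfrp4 (0.16) and Wif1 (0.20) and the receptor Lgr6 (0.12) were lower. Of 29 BMP and TGF-beta genes besides Bmp3, none was at least 2-fold and 8 were at most 0.5-fold. The ligands Bmp5 (1.90) and Bmp4 (1.42) and the antagonist Chrdl1 (1.94) were nearest to the upper threshold. The TGF-beta-induced matrix protein gene Tgfbi was at 47.2 and 294 CPM (0.16), and the activin antagonist Fst at 13.7 and 73.5 (0.19).

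Fmod belongs to the small leucine-rich proteoglycans, and its relatives were split. Of 13 measured relatives, 1 was at least 2-fold and 6 were at most 0.5-fold (median 0.57), against 3.74% and 5.81% of all genes. Prelp was at 639 and 284 CPM (2.25) and Ogn, osteoglycin, at 1.47. Lum, lumican, the close relative of fibromodulin, was at 87.8 and 683 CPM (0.13, 0.12 to 0.14), and Bgn, biglycan, at 1.03. Of 22 collagen genes, 2 were at least 2-fold and 5 at most 0.5-fold. Col13a1, a transmembrane collagen, was at 264 and 84.7 CPM (3.12). The fibrillar chains Col1a1 (0.48) and Col3a1 (0.51) and the adventitial Col14a1 (0.37) and Col15a1 (0.30) were lower.

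Adra1b was higher through the choice of the cells, and the other receptor genes of its list were split. Of 16 measured other adrenergic and G protein-coupled receptor genes, 5 were at least 2-fold and 4 at most 0.5-fold (median 1.61). Over all genes the shares were 3.74% and 5.81%. Adra1a, an alpha-1 adrenergic receptor, was at 17.4 and 7.32 CPM (2.38) and S1pr3, a sphingosine-1-phosphate receptor, at 48.7 and 21.03 (2.32). With Cxcl14 left out of the rule both were under 2-fold, Adra1a at 1.2 and S1pr3 at 1.45, and the list median was 1.28. Adrb1 was at 1.87 and 0.551 CPM. Of 24 axon guidance genes, Nrp2, a neuropilin co-receptor, was at 150 and 46.3 CPM (3.24), the ligand Slit2 at 2.63 and its receptor Robo2 at 2.06, the 3 at or over 2-fold, while 7 were at most 0.5-fold, among them Sema3c (0.24).

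Transcription factor and metabolic genes were split. The counts here stand beside 3.74% of all genes at least 2-fold and 5.81% at most 0.5-fold, and those near these shares are not read as results. Of 27 measured lung mesenchyme factors, Tbx2 (2.24, 180 and 80.3 CPM) and Hoxa5 (2.14, 212 and 99.0 CPM) were at least 2-fold, Tbx4 was at 1.99, and 7 were at most 0.5-fold, including Ebf2 (0.09), Ebf1 (0.25) and Twist2 (0.26). Of 17 lipid and retinoid genes, 4 were at least 2-fold and 5 at most 0.5-fold. G0s2, an inhibitor of fat breakdown, was at 1017 and 335 CPM (3.03) and the retinoic acid-making enzyme Aldh1a1 at 280 and 111 (2.53), whereas its relative Aldh1a2 was at 8.59 and 55.7 (0.15). Of 22 chemokine, cytokine and complement genes besides Cxcl14, the complement gene C7 was the 1 at least 2-fold (2.42), and Il33 (0.25) and Ccl11 (0.27) were among the 3 at most 0.5-fold. Of 16 immediate early and heat shock genes, which respond to tissue dissociation, 1, Hspb1, was past a threshold (2.07), and Fos was at 1.16.

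The other lists gave smaller sets. Counts near the shares over all genes (3.74% at least 2-fold and 5.81% at most 0.5-fold) are not read as results about a list. Counts at least 2-fold and at most 0.5-fold were 2 and 8 of 32 elastic fibre and adhesive matrix genes, 1 and 3 of 20 matrix proteases and inhibitors, 0 and 3 of 8 Notch genes, 1 and 2 of 11 PDGF, KIT and VEGF genes, 0 and 1 of 8 insulin-like growth factor genes, and 0 and 5 of 7 pericyte genes. Postn, encoding periostin, was at 7.20 and 57.7 CPM (0.12), and Pdgfra, a general fibroblast marker, at 1.36. Outside the lists, Slc36a2, an amino acid transporter, was at 228 and 62.5 CPM (3.65), Gyg, glycogenin, at 458 and 132 (3.48), Alcam, an adhesion molecule, at 206 and 63.6 (3.24), and Macf1, a cytoskeletal cross-linker, at 2225 and 693 (3.21). At lower levels, Bpifa2 was at 48.1 and 4.44 CPM (10.8) and Tmem163, a zinc transporter, at 36.1 and 5.02 (7.19), and both were leading genes of clusters rich in rule cells.

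Markers of cells that the sort and filters should remove were read beside these results. Igkc had the largest ratio but one, 126, at 470 and 3.74 CPM, with Jchain and Igha above and below it. Of the Igkc UMIs in rule cells, 99.1% came from 1 cell of 32986 UMIs that had 3 rule genes, 127 UMIs of Col1a2 and no doublet call. For Igha and Jchain the same cell held 98.8% and 99.4%. Sftpc, a surfactant gene of type 2 epithelium, was at 2200 CPM in rule cells and 2328 in other cells (0.94). Its ratio was 1.505 without called doublets and 0.343 with Cxcl14 left out of the rule, so it did not stay near parity. Ager was at 125 and 48.8 CPM (2.57), but 68.7% of its rule-cell UMIs lay in the 40 rule cells of cluster 8, and without them it was at 40.1 CPM. The other cells of cluster 8 stayed in the 48.8 CPM, so the 40.1 CPM is not compared with it. The Ager ratio was 3.55 without called doublets and 1.52 with Cxcl14 left out. The lists summed to 2707 and 2772 CPM for 9 epithelial genes, 427 and 449 for 5 leukocyte genes, 52.7 and 151 for 5 endothelial genes, 42.1 and 32.2 for 6 mesothelial genes and 4.02 and 9.31 for 3 glial genes. Epcam, Ptprc, Pecam1 and Msln were at 0 by the rule. Proliferation genes summed to 35.9 and 27.2 CPM, and 93.8% of their UMIs in rule cells came from 6 cells of cluster 18. The part of free RNA and of doublets in the ratios was not tested.

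Set against other cells of 1 fibroblast kind, the rule cells differed least from alveolar-gate cells. These 3 sets were other cells past exactly 1 gate. Against 1523 adventitial-gate cells (median 9212 UMIs), 1113 of 12289 genes (9.06%) were at least 2-fold and 631 (5.13%) at most 0.5-fold. Against 317 Hhip-gate cells (median 4902 UMIs), 1130 of 11640 (9.71%) and 711 (6.11%) were. Against 914 alveolar-gate cells (median 5366.5 UMIs), 281 of 11889 (2.36%) and 170 (1.43%) were. A reference set passed 1 gate and no other, while rule cells could pass any, so some of these differences follow from the gates, and the depths differed too.

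Against adventitial-gate cells the alveolar list had 11 of 12 genes at least 2-fold. Npnt was at 1003 and 20.7 CPM (48.4), Col13a1 at 264 and 5.88 (44.9), Itga8 at 399 and 11.8 (33.9) and Nebl at 136 and 2.63 (51.6). Of 7 adventitial genes outside the gate, 6 were at most 0.5-fold. The lowest genes were Ebf2 (0.05), Lum (0.10), Sfrp4 (0.10) and Aldh1a2 (0.10). Against Hhip-gate cells all 12 alveolar genes were at least 2-fold and all 8 smooth muscle genes at most 0.5-fold. Hgf was at 86.0 and 5.22 CPM (16.5) and C7 at 163 and 8.88 (18.3), whereas P2ry14 was at 2.56 and 259 (0.01), Scx, a tendon transcription factor, at 2.42 and 109 (0.02) and Ednrb, an endothelin receptor, at 4.30 and 178 (0.02). Both reference sets had fewer than 3 of the 5 alveolar gate genes, Npnt and Itga8 among them. The ratios of the alveolar list therefore follow in part from the gates.

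Against alveolar-gate cells it was the adventitial list that was higher, with 7 of 12 genes at least 2-fold and a median of 2.23, while 7 of 8 smooth muscle genes were at most 0.5-fold. That list holds the 5 adventitial gate genes, of which alveolar-gate cells had fewer than 3, a limit not set on rule cells. The list ratios, those of Ly6a and Pi16 among them, therefore follow in part from the gates. With both sides past the alveolar gate alone the list median was 0.99. Ly6a, a cell-surface marker of adventitial fibroblasts and progenitors, was at 363 and 34.2 CPM (10.6, 9.17 to 12.4). Dcn was at 3530 and 1381 CPM (2.56), Pi16 at 463 and 189 (2.45) and the scavenger receptor Scara5 at 54.1 and 9.98 (5.42). Myh11, smooth muscle myosin, was at 14.9 and 57.3 (0.26), and the BMP modulator Bmper at 20.7 and 57.1 (0.36). Only 37 alveolar-gate cells had none of the 5 rule genes, and against those 37 Dcn was at 0.80, Pi16 at 0.55 and Scara5 at 0.82, while Ly6a was still at 3.40. The higher levels of Dcn, Pi16 and Scara5 thus held only against alveolar-gate cells with 1 or 2 of the rule genes. All 5 proliferation genes were at least 2-fold in rule cells here (35.9 and 8.50 CPM summed), but without the 6 cells of cluster 18 they summed to 2.24 CPM. No cluster was taken out of the alveolar-gate cells, so the 2.24 CPM is not compared with their 8.50.

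When both sides had passed the alveolar gate alone, few genes differed. Between 1146 rule cells (median 6863 UMIs) and 914 other cells (median 5366.5 UMIs), 72 of 11314 genes (0.636%) were at least 2-fold and 121 (1.07%) at most 0.5-fold. Among genes over 50 CPM, 4 were at least 2-fold: Ly6a at 83.5 and 34.2 CPM (2.44, 2.07 to 2.89), Lbp at 50.8 and 22.2 (2.29), Gdf10, a BMP-related ligand, at 102 and 47.5 (2.15) and Fndc1 at 103 and 49.2 (2.09). Myh11 was at 12.8 and 57.3 (0.22), Aqp1, a water channel, at 66.4 and 218 (0.30), Adh7 at 31.8 and 80.6 (0.39) and Acta2, smooth muscle actin, at 158 and 371 (0.42). Against the 37 cells with none of the rule genes, Ly6a was at 0.78 and Gdf10 at 0.996. The alveolar list had none of 7 genes past a threshold (median 0.85), and the adventitial list 2 of 11 (median 0.99).

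When both sides had passed the adventitial gate alone, more genes differed. Between 147 rule cells (median 10186 UMIs) and 1523 other cells, 348 of 11259 genes (3.09%) were at least 2-fold and 663 (5.89%) at most 0.5-fold. The highest were Limch1 at 634 and 102 CPM (6.22, 5.73 to 6.74), the calcium-binding Ncald at 51.1 and 9.82 (5.21), Slc36a2 at 125 and 24.6 (5.09), Nrp2 at 88.9 and 18.1 (4.91) and Gyg at 138 and 29.5 (4.68). Each of these 5 was also at least 2-fold over all other cells, where Ncald was at 3.25. The lowest were Tmem100 at 3.84 and 54.3 CPM (0.07), Lum at 120 and 904 (0.13) and Lmo2 at 8.31 and 61.5 (0.14). Scrublet called none of the 147 and 1.05% of the 1523. Sftpc was at 420.0 CPM in the 147 and 1862 in the 1523 (0.226), and at a ratio of 0.646 without called doublets, so the difference rests largely on a few called cells of the reference. Its part in the other ratios was not tested.

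Rule cells with both Fmod and Adra1b were compared with those that had neither. There were 219 of the first (median 9598 UMIs), against 712 with neither (median 6696 UMIs), which all had Cxcl14, Nt5dc2 and Bmp3. Of 10348 genes, 233 (2.25%) were at least 2-fold in the first and 380 (3.67%) at most 0.5-fold. Bpifa2 was at 115 and 21.03 CPM (5.48, 4.38 to 6.90), the scavenger receptor genes Scara3 and Scara5 at 4.59 and 3.46, Lbp at 169 and 40.6 (4.16) and Ly6a at 614 and 189 (3.25). Slc7a10 was at 11.8 and 85.0 CPM (0.14), Tnc at 7.43 and 68.1 (0.11) and Wnt2 at 31.5 and 109 (0.29). Bpifa2 and Lbp were also leading genes of cluster 7. Both sets were chosen by rule genes, and the epithelial gene Ager was also lower in the first, at 40.2 and 172 CPM.

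The authors' deposited table gives mean counts and log2 fold changes in 17 clusters of their own, which are not matched to the clusters above. In the authors' deposited table Fmod had its highest log2 fold changes in their clusters 15 (2.28) and 7 (2.17, adjusted p 1.02e-14). Their cluster 7 also had Ptch1 at 1.90, Adra1b at 1.80, Cxcl14 at 1.64 and Nt5dc2 at 1.49, with Dcn at -0.14 and Npnt at 0.01, per the authors' deposited table. Mean counts of Cxcl14 in the authors' deposited table were highest in their clusters 10 (18.1) and 1 (13.8), where Dcn had log2 fold changes of -2.41 and -5.01. In the authors' deposited table all 5 rule genes had positive log2 fold changes in their clusters 7, with Bmp3 at 1.32, and 10. In their cluster 10 Cxcl14 was at 2.60, Nt5dc2 at 2.42, Adra1b at 1.89, Bmp3 at 1.76 and Fmod at 1.15, per the authors' deposited table. The highest values of Fmod and of Cxcl14 in the authors' deposited table still lay in different clusters.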

How the data were processed

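Single-cell RNA was measured in CD45-negative, CD31-negative lung cells of 4 samples with the same labels. The submitters' processing notes name Cell Ranger 3.0.0 and the build mm10, and the annotation release is not given in the sources used here. Raw UMI counts were deposited as 1 matrix of 31055 features in 11118 barcodes, with no map from cells to samples and 1 barcode suffix, so cell barcodes shared between libraries could not be counted. The authors' deposited table gives, per the file headers, mean counts per cluster, log2 fold changes and adjusted p-values.

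From the counts, UMIs were summed over the cells of a set and divided by the set's total to give CPM, with exact Poisson 95% intervals. Ratios have exact conditional binomial and shares exact Clopper-Pearson 95% intervals, for counting error only. With 1 sample there is no test; genes with 30 or more UMIs in both sets together were counted by size of ratio (2 or more, 0.5 or less), and list medians are set beside the median over all genes. For a gene with no UMI in 1 of the sets, a bound was computed from a floor of 3 UMIs. Counts and list medians use the raw ratio unless the bound is named. Shares were repeated in cells thinned to 5000 UMIs. Clusters came from scanpy 1.11.5 without the 5 rule genes and with called doublets kept (2000 variable genes, 30 components, 15 neighbours, Leiden resolution 1, seed 0), and doublets were called, not removed, by Scrublet at an assumed rate of 0.08. Scrublet called 458 of the 9391 cells that passed the gene and mitochondrial filters (4.88%). Other tools were Python 3.11.15, numpy 2.4.6, scipy 1.17.1, pandas 2.3.3, igraph 0.11.9 and matplotlib 3.10.9. Positions were read from GENCODE M21 on mm10. Of 418 genes in 30 lists, 417 were found by name. The ratio step was tested on simulated data for rule cells over other cells (13157 genes): 100 of 100 raised and 96 of 97 lowered genes were recovered, and 65 of 12960 unchanged genes were called. The simulation drew Poisson counts from the summed UMIs, with changes larger than the 2-fold threshold and no clumping of UMIs in single cells. It does not cover ratios that rest on a few cells.

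The members and lists were chosen with earlier results of these data known. Genes were named from the rule genes, the hedgehog list, the 15 highest and 15 lowest ratios of a comparison (at least 100 UMIs and 50 CPM in the higher set) and the 2 highest and lowest of each list; other named genes, including Bpifa2, Tmem163 and Cnr1, were chosen after their values were seen. Those comparisons against other cells and the 3 gates were planned, and those within the alveolar and adventitial gates and between rule cells with and without Fmod and Adra1b were added after results were seen, as were the values by gate class and by number of rule genes, the epithelial background and the check on single cells. No explanation was tested. Values of some genes are not reported here.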

Additional observations from a re-analysis of the deposited data

How the results depend on the processing

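The 1706 rule cells became 2859 with at least 2 of the genes, 622 with at least 4, 1007 after thinning, 898 when chosen on one part of the UMIs, and 674, 818 and 768 with Cxcl14, Nt5dc2 or Bmp3 left out of the rule. The share past both gates (9.26%) was 7.10% with at least 2 genes, 14.6% with at least 4, 12.5% with at least 10 Col1a2 UMIs, 7.75% without called doublets, 3.38% after thinning, 4.79% with split UMIs, and 14.4%, 13.6% and 13.4% without Cxcl14, Nt5dc2 or Bmp3. The share in the largest cluster (21.4%) was 40.2% at Leiden resolution 0.5, 16.7% at resolution 2, 24.0% with seed 1, 25.3% without called doublets and 32.6% with at least 4 genes.

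Counts of genes depended mostly on the minimum of UMIs, on the threshold of the rule and on the reference cells. With at least 1 UMI in place of 30, the counts at least 2-fold and at most 0.5-fold were 2029 and 3171 over other cells, 3490 and 2029 over adventitial-gate, 2426 and 1773 over alveolar-gate and 4300 and 2117 over Hhip-gate cells, 1685 and 1696 within the alveolar gate, 1316 and 4182 within the adventitial gate, and 1470 and 2857 for cells with both Fmod and Adra1b. With at least 100 UMIs, 470 were at most 0.5-fold over other cells, and the pairs were 141 and 56 over alveolar-gate and 727 and 350 over Hhip-gate cells, 18 and 32 within the alveolar gate, 173 and 262 within the adventitial gate, and 123 and 147 for Fmod and Adra1b.

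Over other cells, the count at least 2-fold was 781 with at least 2 genes, 206 with at least 4, 929 against cells with none of the genes, and 191, 218 and 203 with Cxcl14, Nt5dc2 or Bmp3 left out. Over alveolar-gate cells it was 705 with at least 2 genes, 107 after thinning and 2121 against cells with none, and the count at most 0.5-fold was 335, 319 (at least 4), 885 (none), 321 (Cxcl14 out) and 311 (Bmp3 out). Within the alveolar gate the count at least 2-fold was 339 (at least 2), 30 (thinned) and 1762 (none), and at most 0.5-fold 243 (at least 2), 259 (at least 4), 805 (none), 249 (Cxcl14 out) and 212 (Bmp3 out). Within the adventitial gate they were 609 and 1096 with at least 4, 650 and 1060 after thinning, and 284 at most 0.5-fold with at least 2. With split UMIs 134 genes were at least 2-fold for Fmod and Adra1b. The causes were not tested.

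Of 3308 gene ratios under these settings, 1982 moved by less than their counting interval, 1311 moved further and 15 changed direction; of 580 list medians 1 changed direction. Igkc over other cells was 0.0230 with at least 4 genes, 0.0333 after thinning, 0.0264 with split UMIs, and 0.0246, 0.0234 and 0.0244 with Cxcl14, Nt5dc2 or Bmp3 left out. Tnc over other cells was 0.862 with at least 4 genes, 0.815 without Cxcl14 and 0.955 without Bmp3. The glial median was 2.14 with split UMIs. Against alveolar-gate cells with none of the genes, Scara5 was 0.823, Cd248 0.810, Pi16 0.549 and Dcn 0.800, and within the alveolar gate Ly6a was 0.782 and Gdf10 0.996.

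Matching each rule cell with 3 unused other cells of like depth was not run, since it needs 5118 of 4070 cells; 1 cell each was used instead, an alternative chosen after seeing the data, as was leaving out the cell with most Igkc UMIs. The comparison by Fmod and Adra1b has no reference cell with at least 4 genes or with Cxcl14, Nt5dc2 or Bmp3 left out. No paired analysis was possible because the cells are not assigned to the samples. With 1 sample, no difference can be set against a spread between mice.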
